A study of Mus musculus with 8 samples.

Results

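Interferon-stimulated genes were followed in the brainstem of mice that lacked the mitochondrial complex I subunit Ndufs4 in glutamatergic neurons. The set held 39 genes, chosen by symbol from the known targets of interferon signalling, of which 38 had a probe by symbol on the array, 29 had a probe that could be tested and 9 had no such probe, out of 10427 genes tested in all. The choice was made with earlier results of these data known. Of the 39, 30 were counted as type I antiviral genes and 7 as GTPases known as targets of interferon-gamma, and Irf1 and Apobec1 were counted with neither. Ifi44 had no probe by symbol, so its expression was not analysed here. Whole brainstem RNA came from 4 Vglut2:Ndufs4cKO mice (cKO) and 4 Vglut2:Ndufs4cCT littermates (cCT), with 1 mouse per array. The strain was given as C57/BL6J. All mice carried a Cre transgene driven by the Slc17a6 (Vglut2) promoter. The cKO mice had 1 deleted and 1 floxed Ndufs4 allele, so that 1 allele was missing in all their cells, and the cCT mice had 1 floxed and 1 wild-type allele. The cKO mice were at a late stage, over postnatal day 68. For the cKO arrays the genotype field of the labels reads Vglut2:Ndufs4KO.

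Interferons are secreted proteins, and cells release those of type I on sensing foreign or misplaced nucleic acid. Type I interferons act on promoters that hold the interferon-stimulated response element (ISRE), which a complex with Stat2 and Irf9 binds, while interferon-gamma acts on promoters that hold the gamma-activated site (GAS). The targets restrict viral entry, RNA and protein synthesis, or, in the case of the immunity-related GTPases and guanylate-binding proteins, attack the vacuoles of intracellular pathogens. In brain, microglia, astrocytes, endothelium and neurons can all express such genes.

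All 8 arrays were Illumina MouseRef-8 v2 on 1 beadchip, with cKO in the last 4 positions and cCT in the first 4, so that position and genotype cannot be told apart. Between 14720 and 15042 probes were detected on cKO arrays and 14293 to 14723 on cCT arrays (p = 0.0571, two-sided exact permutation test), and the signal at which probes fade into the background was 182 to 186 on cKO arrays and 188 to 206 on cCT arrays (exact p = 0.0286, the smallest that 4 arrays against 4 allow). The median number of beads behind a probe was 34 to 37. Of the brainstem markers Slc17a6 and Hoxb3 were detected on all 8 arrays and Hoxb8 on 1 cCT array. Of the forebrain markers Neurod6 was not well above background on any array and Tbr1 was detected on 1 cKO array, while Drd2 and Prox1 were detected on all 8. Of 4 Ndufs4 probes, ILMN_1234521 had log2 signals of 11.35, 11.72, 11.53 and 11.19 on cKO arrays 1 to 4, against 13.35, 12.31, 12.80 and 12.97 on cCT arrays 1 to 4 (adjusted p = 0.0228, limma), and the other 3 did not pass.

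Most interferon-stimulated genes had a higher mean signal in cKO brainstem, but none passed as higher after adjustment over all tested probes. Signals are given as log2(signal + 16), and a fold change on that scale understates the change of a dim gene. Passing means an adjusted p below 0.05 from limma. By that measure 0 of 29 members were higher, where 0.777% of all tested genes were, and 1 of 29 was lower, where 0.0288% of all tested genes were. The lower member entered the test through cCT arrays alone. At an unadjusted p under 0.05, 22 of 29 (75.9%) were higher, against 7.19% of all tested genes, and 1 (3.45%) was lower, against 3.02%. In 11 members (37.9%) every cKO array lay above every cCT array, against 4.29% of all tested genes, and in 1 every cKO array lay below every cCT array, against 2.03%. These counts hold after background removal and scaling. Among the 11, the deposited signals of Bst2, Dhx58, Ddx58 and Igtp overlapped between the groups. Fold changes were positive in 28 of 29, against 53.4% of all tested genes, with a median of 0.85 on the log2 scale, beside 0.02 over all tested genes. Since the members were chosen with earlier results of these data known, these shares describe the list and are not a test. In tissue RNA, a different number of cells that express a gene and a different amount of RNA per cell cannot be told apart.

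**Figure D1:**
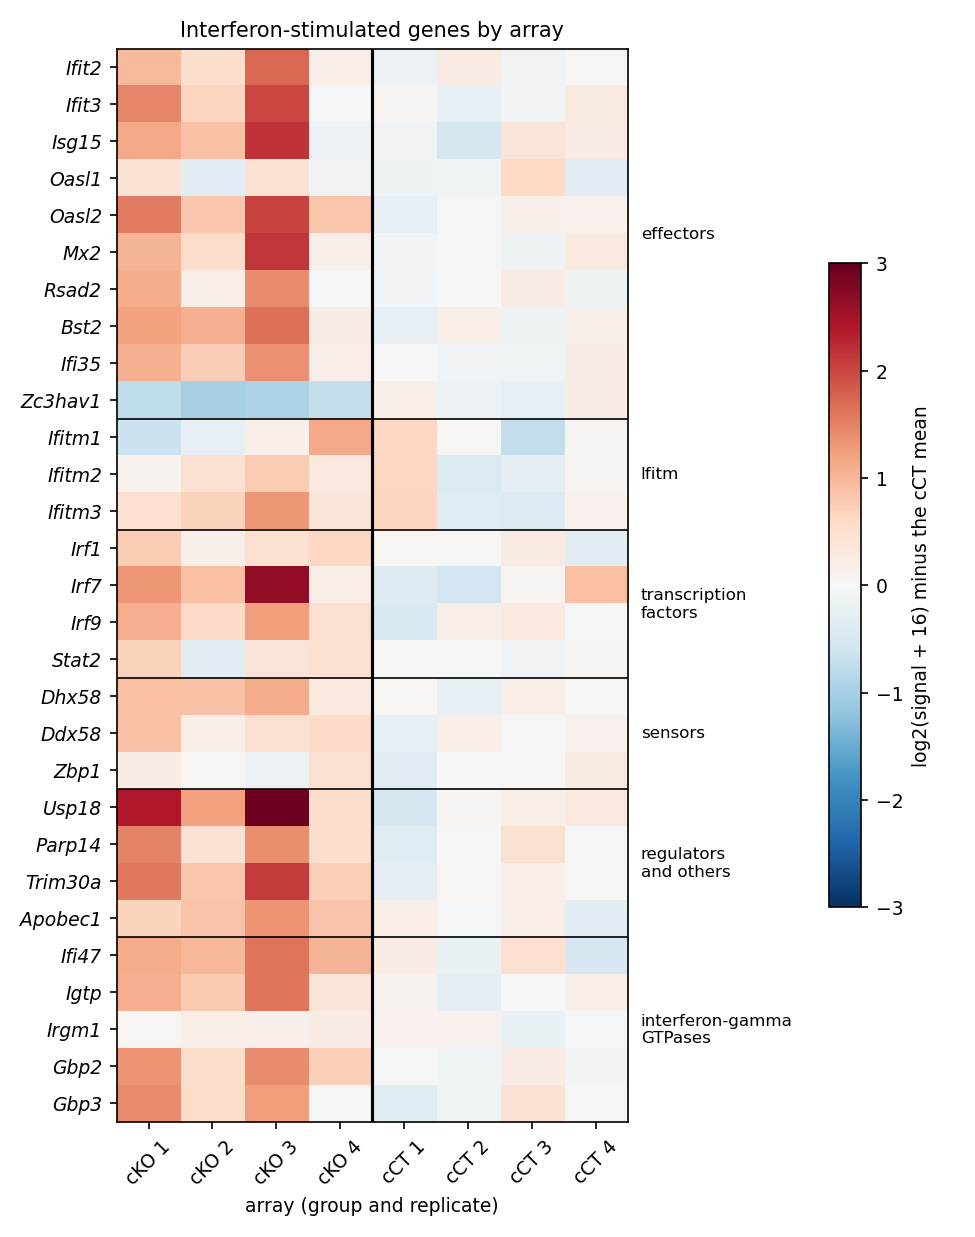
Log2(signal + 16) minus the mean of the 4 cCT arrays (colour) for the 29 tested members (rows, by role) on each array (columns, cKO left and cCT right). The cKO 1 and cKO 3 columns are the darkest for most rows, while cKO 4 is pale in many antiviral effectors; Zc3hav1 is the 1 row below the cCT mean on all 4 cKO arrays. Irf1 and Apobec1 are drawn with their role class.

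Antiviral genes and GTPases were then counted apart. Of 22 tested antiviral members, 16 (72.7%, against 7.19% of all tested genes) were higher at an unadjusted p under 0.05. In 7 (31.8%, against 4.29% of all tested genes) there was no overlap with cKO higher, and the median log2 fold change was 0.85. Of 5 tested GTPases, 4 were higher at an unadjusted p under 0.05 and 3 had no overlap with cKO higher, beside the same shares of all tested genes. Their median was 0.96. The 5 values make the second median a loose one, and the difference between the sub-lists was not tested.

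Among the antiviral effectors, which block viral replication in infected cells, 9 of 10 tested genes had positive fold changes (53.4% of all tested genes did). At an unadjusted p under 0.05, 8 were higher (7.19% of all tested genes were). Oasl2, a 2'-5'-oligoadenylate synthetase-like protein, had log2 signals of 10.68, 9.93, 11.15 and 9.95 on cKO arrays 1 to 4, against 8.87, 9.06, 9.27 and 9.23 on cCT arrays 1 to 4. All cKO arrays lay above all cCT arrays, and the mean difference was 1.32 (standard error 0.27, adjusted p = 0.0753, limma). A dimmer Oasl2 probe, detected on 1 cCT array, also showed no overlap, with a log2 fold change of 0.98. Bst2, the tetherin that holds budding virions at the cell surface, had 8.45, 8.35, 8.91 and 7.48 on cKO arrays, against 7.02, 7.46, 7.10 and 7.43 on cCT arrays. The groups did not overlap, although cKO 4 lay next to the highest cCT array, and the mean difference was 1.05 on the log2 scale (standard error 0.27, adjusted p = 0.173).

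Ifit3, a member of the same family as Ifit1 and Ifit2, had 12.18, 11.37, 12.73 and 10.69 on cKO arrays, against 10.80, 10.47, 10.63 and 10.98 on cCT arrays. Its cKO arrays were spread over a wide range and cKO 4 lay inside the cCT range, and the mean difference of 1.02 had a standard error of 0.38 (adjusted p = 0.408). The 2 dimmer Ifit3 probes gave −0.09 and 0.02, so the probes of this gene disagreed. Isg15, a ubiquitin-like modifier that is conjugated to proteins and also secreted, had 9.35, 9.11, 10.38 and 8.05 on cKO arrays, against 8.11, 7.70, 8.60 and 8.48 on cCT arrays. It was outside the naming rule and was added after its values were seen, as an example of the same order, with cKO 3 on top and cKO 4 within the cCT range (log2 fold change 1.00, standard error 0.43, adjusted p = 0.483, and 0.61 without cKO 3). Ifit2, Mx2, Rsad2 and Ifi35 had log2 fold changes between 0.69 and 0.97, all with overlap, and without cKO 3 those of Ifit2, Mx2 and Rsad2 were 0.57, 0.58 and 0.44. Oasl1 stood at 0.11 and was detected on 2 cKO arrays and 1 cCT array.

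Zc3hav1 was the only member that passed, and it was lower. It encodes the zinc-finger antiviral protein, which binds viral RNA and directs it to decay. Its log2 signals were 5.60, 5.38, 5.44 and 5.67 on cKO arrays, against 6.56, 6.21, 6.14 and 6.59 on cCT arrays. All cKO arrays lay below all cCT arrays, and the probe was not well above background on any cKO array while it was detected on all 4 cCT arrays. It thus entered the test through cCT arrays alone, which tilts the count of lower members. The means were 5.52 ± 0.13 in cKO and 6.37 ± 0.23 in cCT (SD, n = 4 each), which differ by −0.85 (standard error 0.15, adjusted p = 0.0357, limma). With the cKO arrays set at the detection limit, the cKO mean was at least 1.41-fold lower, a bound on the means that leaves out their spread. The call rests on signals of 205 to 219 on cKO arrays and 249 to 296 on cCT arrays before background removal, close to the background given above, which itself was lower on cKO arrays; the part of that shift in the result was not tested. The call was lost with quantile normalization (adjusted p = 0.0717), an offset of 50 (0.0821, log2 difference −0.55), no background correction (0.253, log2 difference −0.29) or a variance trend with robust moderation (0.135), and when any array other than cKO 4 was left out, with adjusted p between 0.0593 and 0.133.

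**Figure D2:**
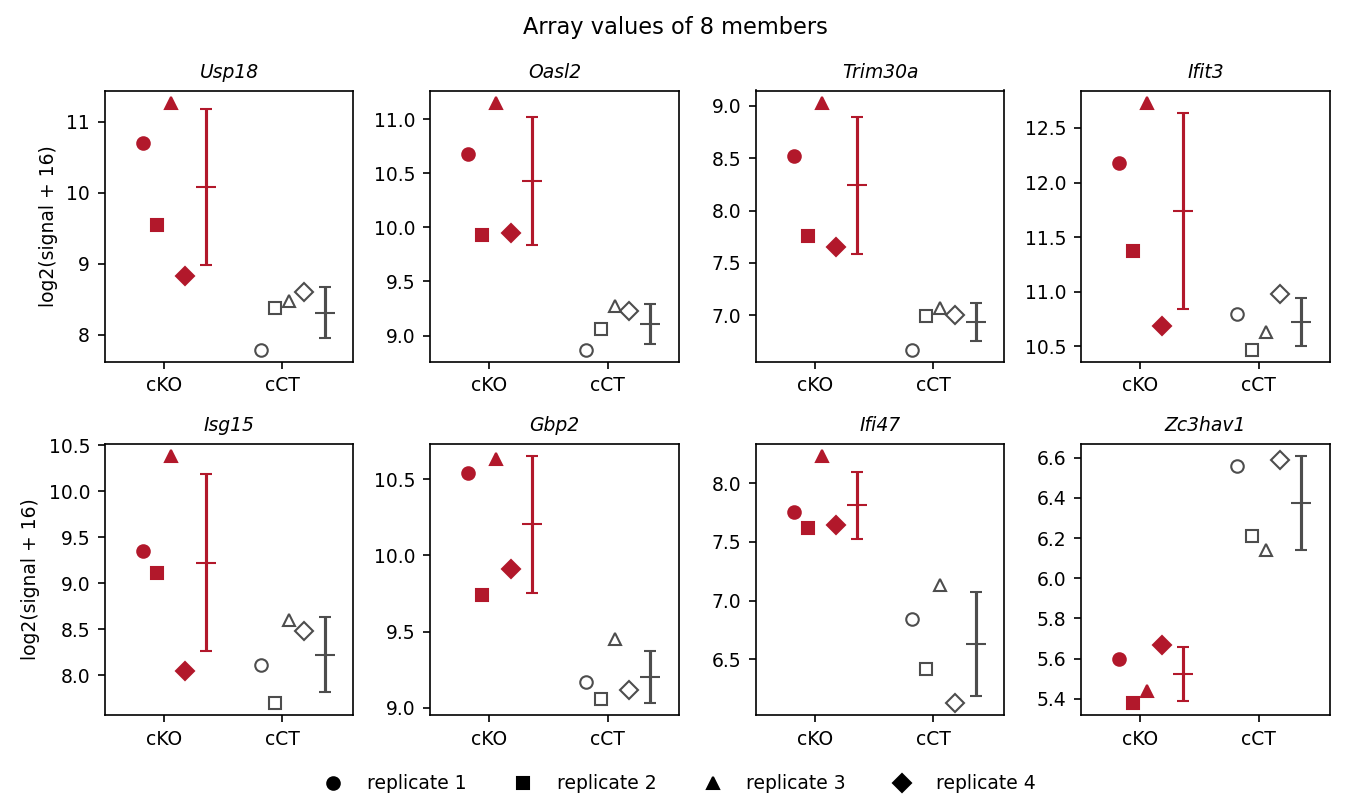
Log2(signal + 16) of 8 members on each array (points, shaped by replicate number), cKO left and cCT right, with mean and SD (n = 4 each). Usp18, Oasl2, Trim30a, Gbp2 and Ifi47 have no overlap between the groups, Ifit3 and Isg15 overlap through cKO 4, and Zc3hav1 is lower on all 4 cKO arrays.

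The Ifitm proteins sit in membranes and hinder the fusion of virus envelopes. Ifitm3 had log2 signals of 11.55, 11.74, 12.34 and 11.42 on cKO arrays, against 11.69, 10.68, 10.63 and 11.18 on cCT arrays, with overlap caused by cCT 1 (log2 fold change 0.72, standard error 0.27, adjusted p = 0.424). Ifitm2 had 10.51, 10.85, 11.16 and 10.70 on cKO arrays, against 11.03, 9.97, 10.12 and 10.49 on cCT arrays (0.40, standard error 0.24, adjusted p = 0.630). Ifitm1 had 5.33, 5.73, 6.12 and 7.12 on cKO arrays, against 6.58, 6.01, 5.24 and 6.05 on cCT arrays, was detected on 2 arrays of each group, and differed by 0.11 (standard error 0.39), by −0.24 without cKO 4 and by −0.14 without cCT 3. In all 3 the groups overlapped, and cCT 1 was the highest cCT array.

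The transcription factors of the set gave positive fold changes in 4 of 4, where 53.4% of all tested genes did. Irf9, the DNA-binding part of the complex that reads the ISRE, had 10.50, 9.97, 10.65 and 9.89 on cKO arrays, against 8.94, 9.60, 9.69 and 9.40 on cCT arrays. All cKO arrays were above all cCT arrays, by 0.85 on the log2 scale (standard error 0.23, adjusted p = 0.180), while a dimmer probe of the gene gave 0.49 with overlap. Irf7, which amplifies the type I response by driving interferon-alpha genes, had 6.81, 6.40, 8.15 and 5.67 on cKO arrays, against 5.10, 4.90, 5.56 and 6.39 on cCT arrays. It was detected on 3 cKO arrays and 1 cCT array and overlapped through cKO 4 and cCT 4 (log2 fold change 1.27, standard error 0.50, adjusted p = 0.442). Without cKO 3 its difference was 0.81 and without background correction 0.44. Irf1, an early target of interferon-gamma, had 10.43, 9.82, 10.15 and 10.30 on cKO arrays, against 9.72, 9.70, 9.94 and 9.33 on cCT arrays (0.50, standard error 0.18, adjusted p = 0.373). Its cKO 2 array fell below the highest cCT array, and its dimmer probes gave 0.61, 0.09 and −0.04. Stat2 differed by 0.31.

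Of the cytosolic sensors of nucleic acid, Dhx58 and Ddx58, both helicases that bind viral RNA, had no overlap. Dhx58 had log2 signals of 8.19, 8.15, 8.40 and 7.58 on cKO arrays, against 7.33, 7.02, 7.47 and 7.27 on cCT arrays (log2 fold change 0.80, standard error 0.19, adjusted p = 0.122). Ddx58, the RIG-I helicase, had 6.85, 6.18, 6.44 and 6.53 on cKO arrays, against 5.72, 6.14, 5.91 and 6.09 on cCT arrays, where it was detected on 2 (0.53, standard error 0.17, adjusted p = 0.295). Its lowest cKO array and highest cCT array were almost level. Before background removal and scaling its signals overlapped, at 243 to 291 on cKO arrays and 238 to 263 on cCT arrays. Without background correction the log2 fold change of Ddx58 was 0.12 (adjusted p = 0.728, limma) and that of Dhx58 0.39 (adjusted p = 0.173). Zbp1, a sensor of left-handed nucleic acid, had 7.87, 7.71, 7.46 and 8.12 on cKO arrays, against 7.33, 7.64, 7.69 and 7.90 on cCT arrays, and the groups overlapped throughout (0.15, standard error 0.18, adjusted p = 0.807).

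The 4 tested regulators were all higher at an unadjusted p under 0.05, where 7.19% of all tested genes were. Usp18, the protease that takes Isg15 off its targets and restrains the type I receptor, had 10.70, 9.55, 11.27 and 8.83 on cKO arrays, against 7.79, 8.38, 8.48 and 8.60 on cCT arrays. The difference of 1.78 (3.42-fold, standard error 0.47, adjusted p = 0.182) was the highest log2 fold change among the 29, although its cKO arrays were spread wide and cKO 4 lay just above the highest cCT array. Of its dimmer probes, 1 gave 1.90 without overlap and another 1.17 with overlap. Trim30a, a ubiquitin ligase family member that dampens Toll-like receptor signalling in mice, had 8.52, 7.76, 9.03 and 7.65 on cKO arrays, against 6.67, 6.99, 7.07 and 7.00 on cCT arrays. The groups were apart by more than the spread of the cCT arrays (1.31, standard error 0.29, adjusted p = 0.103). Apobec1, a cytidine deaminase that edits RNA, had 8.03, 8.20, 8.71 and 8.20 on cKO arrays, against 7.56, 7.30, 7.54 and 7.01 on cCT arrays. Its cKO arrays lay close together and apart from the cCT arrays (0.93, standard error 0.18, adjusted p = 0.0667). Parp14 had 0.96 with overlap.

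The GTPases include Ifi47, Igtp and Irgm1, which are immunity-related GTPases, and the guanylate-binding proteins Gbp2 and Gbp3. Ifi47 had log2 signals of 7.75, 7.62, 8.23 and 7.64 on cKO arrays, against 6.84, 6.42, 7.13 and 6.13 on cCT arrays. Here all 4 cKO arrays, cKO 4 included, were clear of the cCT arrays, and its adjusted p of 0.0660 (limma) was the lowest among the members that were higher (log2 fold change 1.18, standard error 0.23). Gbp2 had 10.54, 9.74, 10.63 and 9.91 on cKO arrays, against 9.17, 9.06, 9.45 and 9.12 on cCT arrays (1.00, standard error 0.21, adjusted p = 0.0922). Igtp had 9.43, 9.11, 9.94 and 8.69 on cKO arrays, against 8.44, 8.07, 8.32 and 8.50 on cCT arrays (0.96, standard error 0.24, adjusted p = 0.167). In both genes the groups did not overlap, with cKO 1 and cKO 3 on top.

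Irgm1, which regulates the other immunity-related GTPases, gave 2 answers. Its brightest probe had 13.95, 14.08, 14.04 and 14.11 on cKO arrays, against 14.02, 14.03, 13.69 and 13.82 on cCT arrays, with overlap and a difference of 0.15 (standard error 0.12, adjusted p = 0.713). A dimmer probe had 9.91, 9.50, 10.43 and 9.57 on cKO arrays, against 8.69, 8.87, 9.21 and 8.94 on cCT arrays, with no overlap and 0.92 (standard error 0.21, adjusted p = 0.122). The dimmer probe was highest on cKO 3 and then on cKO 1, as were Ifi47, Gbp2 and Igtp, and the brightest probe was not. Gbp3 gave 0.81 with overlap, and a second probe of it 0.83.

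The untested members were Ifit1, Isg20, Oas1a, Mx1, Ifih1, Xaf1, Rtp4, Iigp1 and Tgtp1. Their probes were not well above background, with the exception of Rtp4 on 2 cKO arrays and Tgtp1 on 1. For Ifit1 the deposited signal was 162 to 198 on cKO arrays and 169 to 231 on cCT arrays, and for Mx1 it was 196 to 219 on cKO arrays and 187 to 225 on cCT arrays, so a difference was not detectable at these signals. Members with near copies, such as Ifit3 and its copy Ifit3b, Oas1a and Oas1g, or Tgtp1 and Tgtp2, may share probes with them, which was not tested. The Oas1a probe was detected on no array, while a probe of Oas1g was detected on all 8, so the signals of these probes differed.

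The cKO arrays differed among themselves more than the cCT arrays did. Over the members, the median range across the 4 arrays was 1.06 in cKO and 0.51 in cCT on the log2 scale, and the range was wider in cKO for 22 of 29 members (75.9%), against 52.5% of all tested genes. The array of cKO 3 was the highest of the 4 cKO arrays in 20 of 29 members (69.0%, against 25.9% of all tested genes) and cKO 2 in 0. The array of cKO 4 was the lowest in 15 (51.7%, against 32.3% of all tested genes) and cKO 2 in 9. In 19 members (65.5%, against 17.0% of all tested genes) both cKO 1 and cKO 3 lay above both cKO 2 and cKO 4, a pattern that was chosen after the values were seen.

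As medians over the 29 members relative to the cCT mean, cKO arrays 1 to 4 stood at 1.08, 0.55, 1.37 and 0.36 on the log2 scale, and cCT arrays 1 to 4 at −0.07, −0.06, 0.07 and 0.08. All 4 cKO arrays were above all cCT arrays, in the order cKO 3, cKO 1, cKO 2 and cKO 4. The regulators had 1.54, 0.84, 1.74 and 0.62 on cKO arrays, against −0.32 to 0.18 on cCT arrays, without overlap. The antiviral effectors had 1.09, 0.60, 1.69 and 0.10 on cKO arrays, against −0.10, −0.07, −0.10 and 0.19 on cCT arrays, so that cKO 4 stayed within the cCT range. The GTPases had 1.12, 0.55, 1.43 and 0.36 on cKO arrays, against 0.11, −0.14, 0.24 and −0.07 on cCT arrays, in the same order and with cKO 4 above the cCT arrays. The median over all tested genes stayed between 0.01 and 0.04 on cKO arrays and between −0.07 and 0.06 on cCT arrays.

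**Figure D3:**
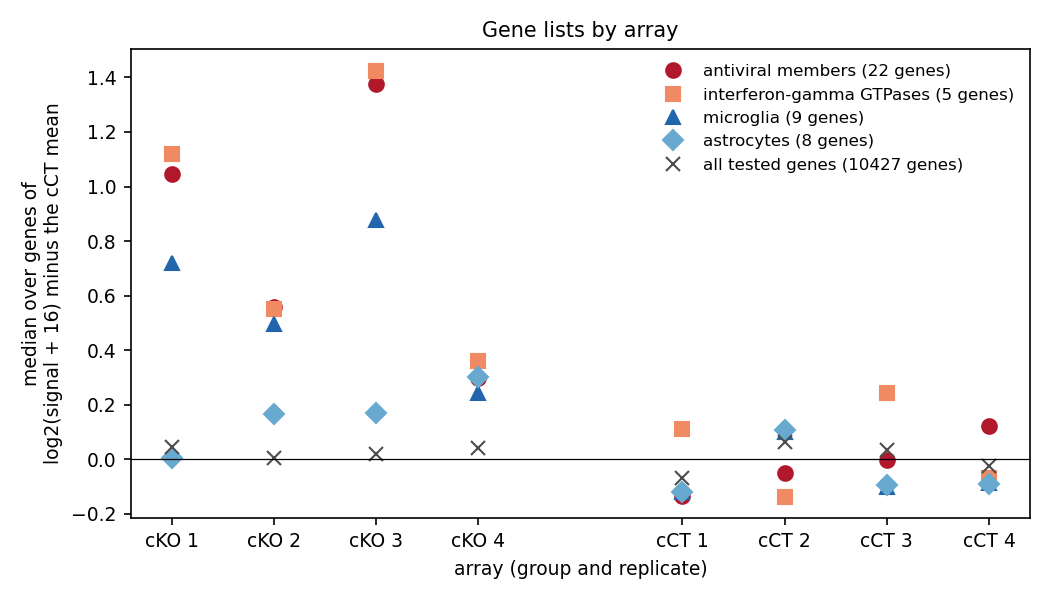
Median over the genes of a list of log2(signal + 16) minus the cCT mean (y axis), by array (x axis, cKO left and cCT right). The medians of antiviral members, interferon-gamma GTPases and microglia markers share the order cKO 3, cKO 1, cKO 2, cKO 4, while the median of all tested genes stays near 0 on every array.

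As medians over the list, markers of microglia followed the same order, although no single tested marker did. Cx3cr1 and Tyrobp, for example, were higher on cKO 2 than on cKO 1. Their medians over 9 tested genes were 0.72, 0.50, 0.88 and 0.24 on cKO arrays 1 to 4, against −0.12, 0.10, −0.10 and −0.09 on cCT arrays, and their summed signal was 7420 to 12807 on cKO arrays and 5299 to 6140 on cCT arrays. Of the 9, 1 passed as higher, where 0.777% of all tested genes did (Fcrls, log2 fold change 1.33, adjusted p = 0.0153, lost without cCT 3 or cCT 4 at up to 0.0582). No overlap with cKO higher was seen in 3 (4.29% of all tested genes), Cx3cr1 gave 1.01 (adjusted p = 0.0815) and P2ry12 0.16. Of 9 tested markers of monocytes and macrophages, Lyz2 and Cd14 passed as higher (Cd14 with any array left out, Lyz2 in 2 of 8 such fits), Ccr2 and Clec12a were not detected, and the summed signal was 7684 to 9386 on cKO arrays and 4952 to 5690 on cCT arrays. That sum includes Lyz2 (log2 fold change 1.75) and Cd14 (1.48), while Ly6c1, the brightest of the 9, gave 0.19 with overlap (adjusted p = 0.742, limma). The medians of this list on cKO arrays 1 to 4 were 0.35, 0.50, 0.59 and 0.26, with cKO 2 above cKO 1, against −0.31 to 0.18 on cCT arrays. No marker of T and natural killer cells, astrocytes or endothelium passed, and 10 of the 12 T and natural killer cell genes on the array had too few detections to be tested, with Cd8b1 detected on 2 cKO arrays, Cd3d on 1 cCT array and the others, Cd4 and Cd8a among them, on none. Astrocyte medians were 0.004, 0.17, 0.17 and 0.30 on cKO arrays 1 to 4, with cKO 4 highest, against −0.12 to 0.11 on cCT arrays. The list of B and plasmacytoid dendritic cells had 3 tested genes, among them the member Bst2 and the microglia marker Siglech, and none passed. Its medians were 0.72, 0.23, 0.58 and 0.16 on cKO arrays, against −0.20 to 0.21 on cCT arrays. Some other lists lay lower on cKO arrays, with no gene that passed. Markers of brainstem neurons (8 tested) had medians of −0.24, −0.20, −0.23 and −0.11 on cKO arrays 1 to 4, against 0.01, 0.02, −0.03 and 0.01 on cCT arrays. The median log2 fold change was −0.57 over 5 neutrophil markers and −0.53 over 3 red blood cell markers, and on both lists the array medians of the groups overlapped. Among the neutrophil markers Retnlg went the other way, with 0.67. The part of these cells in the interferon-stimulated genes was not tested.

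Without cKO 4, 9 members passed as higher: Oasl2, Bst2, Ifi35, Dhx58, Usp18, Trim30a, Ifi47, Igtp and Gbp2, of which 3 are GTPases. That is 9 of 29, where 1.74% of 10304 genes tested without that array were higher. Bst2 then had the lowest adjusted p (0.0188, log2 fold change 1.32, standard error 0.18), and Usp18 the highest log2 fold change (2.19, standard error 0.38, adjusted p = 0.0280). Zc3hav1 stayed the only lower member (−0.90, adjusted p = 0.0272), where 0.495% of genes were lower. Leaving out any of the other 7 arrays gave 0 higher members. The choice of cKO 4 for this comparison was made with the values known, and the detected probes (15042) and the mean signal before scaling (1392.5, the lowest of the 8) were at the end of the range on that array.

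**Figure D4:**
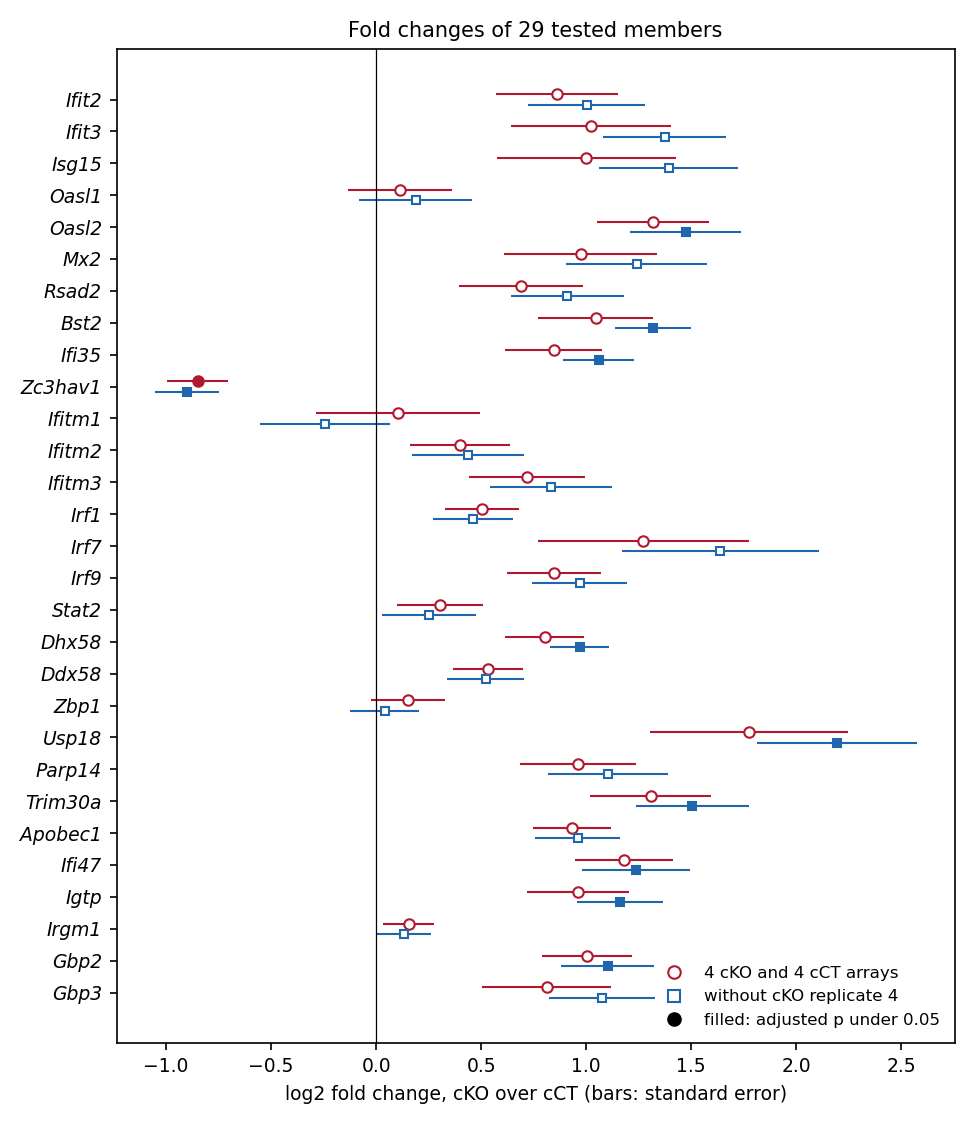
Log2 fold change of cKO over cCT (x axis) with standard error (bars) for the 29 tested members (rows, by role), from all 8 arrays (circles) and without cKO replicate 4 (squares), filled where the adjusted p is under 0.05. With all arrays Zc3hav1 alone is filled, and without cKO 4 there are 9 filled members on the higher side.

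The rest of the pathway was read from lists of genes outside the 39. Of 9 interferon genes on the array, Ifna1 could be tested (0.11, adjusted p = 0.890), Ifnz was detected on 1 cKO array, and the others, Ifnb1 and Ifng included, were not well above background on any array. Of 4 tested receptor subunits 0 passed, with log2 fold changes between 0.14 and 0.25, and Ifnar1 was not well above background. Of 15 tested kinases, adaptors, transcription factors and inhibitors, Irf8 rose (0.777% of all tested genes did) and 3 were higher at an unadjusted p under 0.05 (7.19% of all). The median was 0.14.

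Irf8, a transcription factor of microglia and other myeloid cells that interferon-gamma induces, had log2 signals of 8.04, 7.75, 8.48 and 7.46 on cKO arrays, against 6.55, 6.39, 6.74 and 6.47 on cCT arrays (log2 fold change 1.39, standard error 0.21, adjusted p = 0.0195). The 4 cKO arrays were clear of the cCT arrays and kept the order of the members. The call held in 3 of the 8 fits with 1 array left out and was lost without cKO 1 or any of the cCT arrays, with adjusted p up to 0.0769. Socs3, a feedback inhibitor of cytokine signalling that interleukin-6 and related cytokines induce, had 7.80, 7.49, 8.14 and 9.90 on cKO arrays, against 6.89, 6.52, 6.75 and 6.59 on cCT arrays (1.65, standard error 0.45, adjusted p = 0.193). It did not follow that order, since cKO 4 was by far its highest array.

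Of 31 further interferon-responsive genes tested, 1 rose (0.777% of all tested genes did), 15 were higher at an unadjusted p under 0.05 (7.19% of all), 9 had no overlap with cKO higher (4.29% of all), and the median was 0.52. The 15 hold Cxcl10, Oas2, Nlrc5, Tap1 and Slfn2, and the 9 hold all of these but Tap1. They were detected on no cCT array and entered the test through cKO arrays alone, which tilts both counts towards higher. The gene that rose was Lgals3bp, a secreted scavenger-receptor protein, with 11.46, 11.21, 12.03 and 10.87 on cKO arrays, against 10.15, 9.93, 10.23 and 10.09 on cCT arrays (1.29, standard error 0.23, adjusted p = 0.0386), and it passed without cKO 3 or cKO 4 but not without any of the other 6 arrays. Cxcl10, the chemokine that draws cells with the receptor Cxcr3, had 9.20, 7.32, 9.45 and 6.45 on cKO arrays, against 5.38, 5.49, 5.36 and 5.46 on cCT arrays. It was detected on all 4 cKO arrays and not well above background on any cCT array (fitted log2 fold change 2.68, standard error 0.59, adjusted p = 0.103). With the cCT arrays set at the detection limit, the cKO mean was at least 4.34-fold higher. This is a bound on the means that leaves out the wide spread of the cKO arrays. Oas2, a 2'-5'-oligoadenylate synthetase, was detected on the same arrays, and by the same bound its mean was at least 1.50-fold higher (adjusted p = 0.102). Tor3a gave 0.91 (adjusted p = 0.113). Cxcl10 had the order cKO 3, cKO 1, cKO 2, cKO 4 as well.

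Since the members share regulators, their promoters were searched for the ISRE core, written GAAANNGAAA, and the GAS, written TTCNNNGAA, on both strands of the window from 250 bases before to 50 bases after the start of the gene (RefSeq, GRCm38.p6). Of the 39 members, 31 had a promoter there. The ISRE core was found in 17 of 31 (54.8%), against 3.99% of 27025 genes with a promoter, and the GAS in 9 (29.0%), against 9.55%. By sub-list, the ISRE core was found in 12 of 23 antiviral members and 5 of 6 GTPases, and the GAS in 6 of 23 and 2 of 6. A match is a description of letters and not of a bound site, and the 2 motifs can overlap each other. The ISRE core was absent from this window in Oasl2, Apobec1 and Ifi47, which had the lowest adjusted p among the members that were higher, and also in Zc3hav1.

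The 160 bases before the start are shown, 5′ to 3′ on the strand of the gene, for 4 antiviral members and 2 GTPases described above, as examples of where the motif lies. Capitals mark matches to the ISRE core on either strand, and in Bst2 and Igtp also a match to the GAS, which in Bst2 runs into the ISRE core.
Isg15 chr4:156200819-156200978 (minus strand): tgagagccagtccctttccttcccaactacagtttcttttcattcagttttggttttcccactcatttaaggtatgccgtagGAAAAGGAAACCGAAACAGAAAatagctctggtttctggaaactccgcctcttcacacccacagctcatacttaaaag
Ifit3 chr19:34583369-34583528 (plus strand): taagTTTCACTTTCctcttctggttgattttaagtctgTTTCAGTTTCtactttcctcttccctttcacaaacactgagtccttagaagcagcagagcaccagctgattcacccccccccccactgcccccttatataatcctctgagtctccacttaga
Bst2 chr8:71537473-71537632 (minus strand): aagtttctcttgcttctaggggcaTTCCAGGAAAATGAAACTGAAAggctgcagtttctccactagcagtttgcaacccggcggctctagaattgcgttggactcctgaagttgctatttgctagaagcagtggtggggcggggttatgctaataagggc
Trim30a chr7:104465194-104465353 (minus strand): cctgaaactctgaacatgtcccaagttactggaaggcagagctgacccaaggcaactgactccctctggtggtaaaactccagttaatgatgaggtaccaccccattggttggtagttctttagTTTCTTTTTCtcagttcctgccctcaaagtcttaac
Gbp2 chr3:142620503-142620662 (plus strand): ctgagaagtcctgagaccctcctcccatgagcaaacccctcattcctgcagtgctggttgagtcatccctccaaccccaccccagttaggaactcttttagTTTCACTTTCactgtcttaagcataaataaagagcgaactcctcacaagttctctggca
Igtp chr11:58199396-58199555 (plus strand): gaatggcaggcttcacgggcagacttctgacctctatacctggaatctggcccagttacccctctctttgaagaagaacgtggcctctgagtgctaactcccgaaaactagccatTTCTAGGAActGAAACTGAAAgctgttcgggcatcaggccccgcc
The first ISRE match began 78 bases before the start in Isg15, where 3 overlapping matches follow each other, 156 bases before it in Ifit3, 130 in Bst2, 36 in Trim30a, 59 in Gbp2 and 34 in Igtp. Gbp2, Igtp, Bst2 and Trim30a had no overlap between the groups, while Isg15 and Ifit3 overlapped through cKO 4.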

How the data were processed

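Brainstem RNA of 8 mice was amplified, biotin-labelled, hybridized to MouseRef-8 v2 beadchips and read in GenomeStudio (version not given in the sources used here). Deposited were, for 25697 probes, the unnormalized signal intensity, the detection p-value and the bead number, along with a second table of intensities that the authors had background-subtracted and average-normalized. The 8 bead error columns were not used.

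Background was removed from the unnormalized intensities with the normexp model in limma 3.58.1 (R 4.3.3, statmod 1.5.0), fitted from the detection p-values. Arrays were scaled to equal means, as in the average normalization of the study's methods, 16 was added and log2 taken. The 15225 probes detected (p under 0.05) on 3 or more of the 8 arrays were tested with lmFit and eBayes, two-sided, with Benjamini-Hochberg adjustment over all of them: 102 were higher and 5 lower in cKO. The custom error model of the methods was not among the tools. The steps were checked on simulated arrays.

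A gene stands by its brightest tested probe. Symbols came from the platform annotation, which named 23978 probes. Of 60 member probes 41 were tested. The members and lists were chosen with earlier results of these data known. Array values are printed for members that passed, for the 3 lowest p and the brightest of each role class, and for up to 4 other genes per pathway list. Bounds use the detection limit of each array for a group in which a probe was detected on no array, and they compare group means without their spread. Single values were compared with exact permutation tests over 70 arrangements. Alternatives were quantile scaling, uncorrected background, an offset of 1 or 50, the second deposited table, testing without a filter or with a stricter one (all 4 arrays of 1 group detected at 0.01), robust moderation with a variance trend, a replicate block, averaging a gene's probes and leaving out each array. Each further probe of a gene was added as an alternative after the data were seen.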

Additional observations from a re-analysis of the deposited data

How the results depend on the processing

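Members that passed as higher numbered 1 with an offset of 50 (Ifi47), 2 with the strict filter (Apobec1 and Ifi47), 2 with a variance trend and robust moderation (Oasl2 and Gbp2), 2 with the mean of a gene's probes (Apobec1 and Ifi47), and 0 to 9 with 1 array left out, the 9 without cKO 4. Members that passed as lower numbered 0 with quantile normalization, no background correction, an offset of 50 and a variance trend, and 0 to 1 with 1 array left out. They also numbered 0 with the strict filter, where 24 members were tested and Zc3hav1 was not among them. Over all probes, 3 were lower with an offset of 50, and with 1 array left out 30 to 234 were higher and 0 to 123 lower. At an unadjusted p under 0.05, 15 to 22 members were higher over all settings, with 24 (strict filter) to 38 (no filter) members tested. The median of the antiviral members was 0.44 without background correction, where Ifi47 gave 0.48 and Trim30a 0.65. Signs turned for Oasl1 (−0.0063, no background correction), Ifitm1 (−0.24 without cKO 4 and −0.14 without cCT 3, within −0.24 to 0.35 over all arrays left out), and the dimmer probes of Ifit3 (−0.094) and Irf1 (−0.039). With the replicate number as a block, 0 members were higher, 0 lower (Zc3hav1 at an adjusted p of 0.130), and over all probes 11 were higher and 0 lower. The labels do not say whether the numbers pair the mice, and array values cannot settle it. Same-numbered arrays deviated from their group means in opposite directions (correlations between −0.26 and −0.19), and arrays of unlike number had correlations between −0.215 and 0.25. The cause of these shifts was not tested. Dim probes limit the reading: 24 of the 29 members were detected on all 8 arrays, and 9 further members could not be tested.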
